A study of Mus musculus with 8 samples.

Results

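Immunoglobulin heavy chain variable (Ighv) segments were examined in bulk RNA from mouse colon adenomas and from non-adenoma colon tissue. The segments were the rows of the deposited estimated count table with a symbol of the form Ighv and a digit that reached 10 counts in at least 1 of the 8 libraries, after the value of 1 that had been added to every deposited value was taken off. This rule kept 120 of 183 Ighv rows, out of 31189 rows in the table, and of the 63 rows left out 32 were at 0 in every library. The segments were thus chosen by their own level, and their levels and shares are given as a description. Just outside the limit were Ighv12-3, with a highest count of 8 in the ApcMin/+ section, and Ighv5-3, with a highest count of 9.04 in AOM/DSS adenoma 2. Just inside were Ighv1-62-2, with a highest count of 16.1 in AOM/DSS adenoma 1, and Ighv1-21-1, with a highest count of 16.7 in AOM/DSS adenoma 2. The table typed 96 of the 120 segments as V genes and 23 as V pseudogenes. It gave 1, Ighv1-13, both the types IG_LV_gene and IG_V_pseudogene.

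The 8 libraries came from 2 models of colon adenoma in C57BL/6J mice, with 3 single adenomas and 1 section of non-tumour colon in each. Wild-type mice received azoxymethane (AOM, a carcinogen) once at 10 mg/kg into the peritoneum when 6 to 7 weeks old, then 3 cycles of water with 2% DSS (dextran sulfate sodium, an agent that injures the gut epithelium) and plain water, and were killed 70 days after AOM. Their adenomas had wild-type Apc and expressed a β-catenin that resists degradation, per the labels. The ApcMin/+ mice, which carry a germline truncating allele of Apc in every cell, had no treatment and were 110 to 120 days old when killed. Which mouse gave which sample is not stated, so that p-values below measure the spread between these samples, and each section is a single library.

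An antibody heavy chain gene is put together in each developing B cell by joining a V segment to a D and a J segment, and the V segment encodes most of the variable domain, including the first pair of loops that meet antigen. A B cell and its offspring keep the V segment they joined, so in tissue RNA the V segments in use mark the B cell and plasma cell clones that are present, weighted by how much antibody RNA each cell makes. In the colon most of this RNA comes from plasma cells of the lamina propria that secrete IgA, many of them raised against gut bacteria. V segments fall into families by sequence likeness, here given by the first number of the symbol. In bulk RNA, fewer plasma cells and less antibody RNA per cell cannot be told apart, and many cells of 1 clone cannot be told from many clones that use the same segment.

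Below are the last 300 germline bases, up to the joining end, of 4 segments that ranked first in a library and of Ighv8-8. Ighv8-8 was the largest of the Ighv8 segments named below. The bases were read from the GENCODE release M21 transcripts (mouse assembly GRCm38, chromosome 12, coding strand). Capitals mark the TGT codon of the second conserved cysteine, which lies just ahead of the joining end. The transcript of Ighv1-12 has 294 bases and is shown whole.
Ighv9-3: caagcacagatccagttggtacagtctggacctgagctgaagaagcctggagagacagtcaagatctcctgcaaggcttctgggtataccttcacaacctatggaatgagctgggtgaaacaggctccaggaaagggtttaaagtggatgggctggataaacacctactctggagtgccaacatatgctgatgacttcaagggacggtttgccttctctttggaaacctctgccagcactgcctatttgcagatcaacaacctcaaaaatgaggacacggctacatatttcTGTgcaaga
Ighv1-12: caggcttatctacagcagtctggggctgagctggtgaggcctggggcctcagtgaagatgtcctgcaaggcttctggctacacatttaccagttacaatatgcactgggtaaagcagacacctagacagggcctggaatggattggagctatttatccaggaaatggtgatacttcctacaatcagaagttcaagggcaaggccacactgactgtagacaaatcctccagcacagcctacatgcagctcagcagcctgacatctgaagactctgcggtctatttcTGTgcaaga
Ighv1-53: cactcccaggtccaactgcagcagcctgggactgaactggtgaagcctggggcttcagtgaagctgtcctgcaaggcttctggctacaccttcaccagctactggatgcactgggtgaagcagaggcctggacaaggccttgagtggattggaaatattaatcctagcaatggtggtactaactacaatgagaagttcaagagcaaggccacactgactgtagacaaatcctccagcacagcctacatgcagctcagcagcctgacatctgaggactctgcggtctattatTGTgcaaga
Ighv2-2: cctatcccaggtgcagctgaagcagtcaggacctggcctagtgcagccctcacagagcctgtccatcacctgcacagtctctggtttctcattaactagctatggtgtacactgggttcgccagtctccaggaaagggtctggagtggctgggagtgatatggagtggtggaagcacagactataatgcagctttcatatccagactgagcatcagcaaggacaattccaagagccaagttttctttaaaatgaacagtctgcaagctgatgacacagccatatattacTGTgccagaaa
Ighv8-8: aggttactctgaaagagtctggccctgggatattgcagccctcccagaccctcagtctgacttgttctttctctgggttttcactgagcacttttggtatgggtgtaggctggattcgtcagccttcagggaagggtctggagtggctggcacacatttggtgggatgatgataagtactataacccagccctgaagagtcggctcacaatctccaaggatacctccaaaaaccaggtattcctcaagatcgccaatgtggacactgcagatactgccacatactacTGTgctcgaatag
Ighv1-12 and Ighv1-53, of the same family, were identical over their transcripts at 87.1% of 294 aligned bases, while Ighv8-8 shared 52.1% with Ighv1-53 and 54.6% with Ighv9-3. Closer relatives exist: 105 of the 120 segments shared a run of 50 bases with another Ighv row, 36 shared a run of 100 bases, and the median identity of a segment to its nearest fellow was 94.7%. Ighv1-53 was closest to Ighv1-62 at 96.3%, Ighv8-8 to Ighv8-11 and Ighv8-5 alike at 96.1%, and Ighv9-3 to Ighv9-2 at 94.3%. Ighv1-62-2 and Ighv1-71 were identical over 302 bases, so their separate counts rest on how the authors' counting split the reads. Somatic mutation in expressed antibodies moves reads further from the germline, and its effect on these counts was not tested.

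A second set is shown because 1 of its members took a large share of the counts although it is annotated as a pseudogene, both in the deposited table and in GENCODE. The last 300 bases are shown, and capitals mark the bases of Ighv3-2 and of its nearest fellow Ighv3-1 that differ.
Ighv3-2: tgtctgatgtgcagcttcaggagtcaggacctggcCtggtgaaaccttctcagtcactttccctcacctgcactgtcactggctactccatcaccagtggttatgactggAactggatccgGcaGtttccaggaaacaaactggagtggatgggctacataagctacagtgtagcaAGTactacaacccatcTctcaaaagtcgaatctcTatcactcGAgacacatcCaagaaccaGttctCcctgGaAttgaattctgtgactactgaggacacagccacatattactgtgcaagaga
Ighv3-1: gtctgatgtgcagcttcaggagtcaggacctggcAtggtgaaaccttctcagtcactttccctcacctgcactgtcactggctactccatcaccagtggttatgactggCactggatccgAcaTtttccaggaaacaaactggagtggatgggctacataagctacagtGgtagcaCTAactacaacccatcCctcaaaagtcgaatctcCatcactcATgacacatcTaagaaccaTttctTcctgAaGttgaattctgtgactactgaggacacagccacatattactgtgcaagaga
Over the 350 aligned positions of their transcripts the pair had 16 substitutions and 1 base that Ighv3-2 lacks, for an identity of 95.1%. The missing base shifts the reading frame of Ighv3-2 ahead of the joining end.

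Total estimated counts were 18156974 to 22720164 per library, and no 2 libraries held identical values. AOM/DSS adenoma 2 stood apart in lymphoid RNA: the summed level of 14 B cell markers was 699.7 CPM (counts scaled to a common library size with TMM factors) in it, against 76.0 and 82.4 CPM in the other AOM/DSS adenomas, 9.82 to 21.5 CPM in the ApcMin/+ adenomas, 105 CPM in the AOM/DSS section and 143 CPM in the ApcMin/+ section. None of the 14 was at 0 in any library. Results that rest on AOM/DSS adenoma 2 are in several places also given without it. Smooth muscle markers (4 genes) summed to 144 to 287 CPM in AOM/DSS adenomas against 5842 CPM in their section, and to 363 to 1142 CPM in ApcMin/+ adenomas against 4035 CPM in theirs. Smooth muscle RNA was thus lower in the adenomas of both models, and its part in the results was not tested.

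The total level of Ighv RNA differed widely among adenomas of 1 model. The 120 segments summed to 512, 2883 and 285 CPM in AOM/DSS adenomas 1 to 3, against 300 CPM in the AOM/DSS section. The sums were 165, 41.4 and 222 CPM in ApcMin/+ adenomas 1 to 3, against 1235 CPM in the ApcMin/+ section. Every ApcMin/+ adenoma thus lay below the ApcMin/+ section and below every AOM/DSS adenoma, while AOM/DSS adenomas lay on both sides of their section. The means were 1227 ± 1439 CPM in AOM/DSS adenomas and 143 ± 92.4 CPM in ApcMin/+ adenomas (SD, n = 3 each), and without AOM/DSS adenoma 2 the AOM/DSS mean was 398 CPM. In counts, from which all shares below are computed, the sums were 11928, 54039 and 6679 in AOM/DSS adenomas, 5987 in the AOM/DSS section, 3627, 935 and 4854 in ApcMin/+ adenomas, and 21539 in the ApcMin/+ section. A segment at 0 therefore may hold up to 0.321% of the sum in ApcMin/+ adenoma 2 but 0.00555% in AOM/DSS adenoma 2, the shallowest and the deepest library for Ighv.

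**Figure D1:**
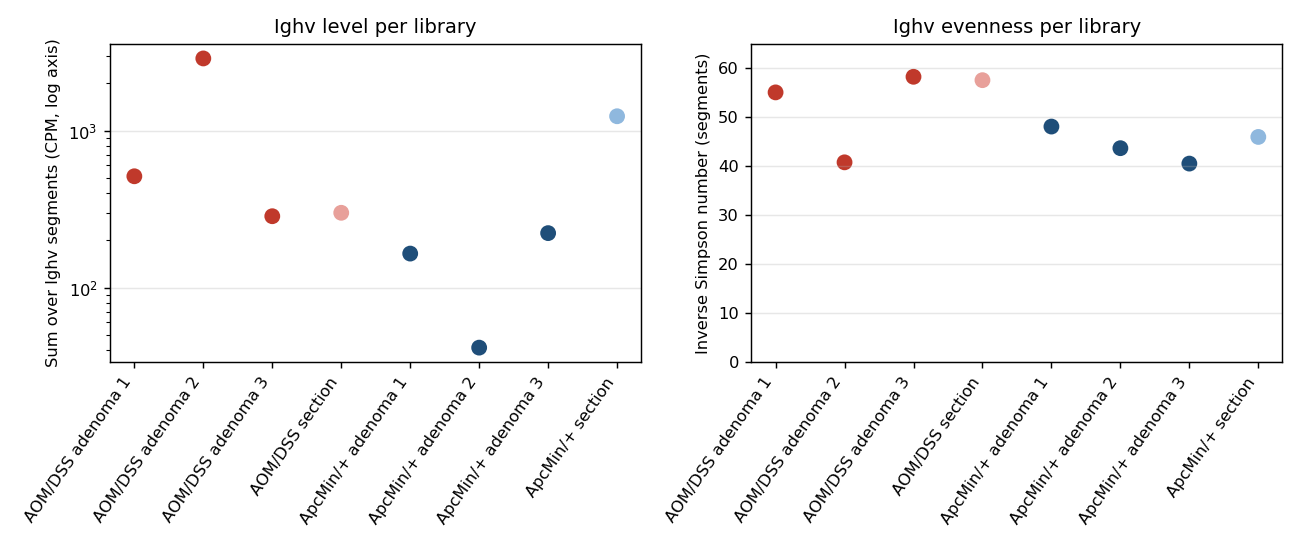
Left, summed level of the 120 Ighv segments (CPM, log axis) in each library. Right, inverse Simpson number of the Ighv shares, the number of equally used segments that would give the same concentration. Red, AOM/DSS; blue, ApcMin/+; dark points, single adenomas; light points, sections. The level ran from 41.4 to 2883 CPM, while the inverse Simpson number stayed between 40.6 and 58.3.

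No library was dominated by 1 segment. The largest share of the Ighv sum, with its Wilson 95% interval for counting error, was 4.13% (3.79 to 4.51%) for Ighv3-2 in AOM/DSS adenoma 1. It was 7.00% (6.79 to 7.22%) for Ighv9-3 in AOM/DSS adenoma 2. It was 3.69% (3.26 to 4.16%) for Ighv1-53 in AOM/DSS adenoma 3, and 4.01% (3.54 to 4.54%) for Ighv2-2 in the AOM/DSS section. Among ApcMin/+ adenomas the largest share was 6.12% (5.39 to 6.95%) for Ighv1-12 in adenoma 1. It was 7.58% (6.06 to 9.47%) for Ighv9-3 in adenoma 2 and 8.13% (7.40 to 8.94%) for the same segment in adenoma 3. In the ApcMin/+ section it was 5.88% (5.58 to 6.20%) for Ighv3-2. Intervals treat each read as independent and leave out errors of read assignment. In all, 5 different segments led the 8 libraries, and the 15 to 22 largest segments made up 50% of the sum.

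Per unit of length, with FPKM in place of counts, the leading share was 5.18% for Ighv1-53, 9.44% for Ighv9-3 and 4.70% for Ighv1-53 in AOM/DSS adenomas 1 to 3, and 5.11% for Ighv2-2 in their section. It was 9.42% for Ighv1-12, 9.71% for Ighv9-3 and 11.1% for Ighv9-3 in ApcMin/+ adenomas 1 to 3, and 6.57% for Ighv1-12 in their section. The scale changed the leader in 2 libraries, AOM/DSS adenoma 1 and the ApcMin/+ section, where Ighv3-2 led by counts.

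Evenness was summed up by the inverse Simpson number, 1 over the sum of squared shares. It was 55.1, 40.8 and 58.3 segments in AOM/DSS adenomas and 57.6 in their section, and 48.1, 43.7 and 40.6 in ApcMin/+ adenomas and 46.0 in theirs. The means of 51.4 ± 9.31 in AOM/DSS adenomas and 44.1 ± 3.80 in ApcMin/+ adenomas (SD, n = 3 each) overlapped through AOM/DSS adenoma 2, whose value lay within the ApcMin/+ range. From FPKM shares that adenoma was at 33.0, below the 33.9 to 35.9 of the ApcMin/+ adenomas. Among V genes alone it was at 34.5, below their 36.0 to 42.6. From count shares, the AOM/DSS mean without AOM/DSS adenoma 2 was 56.7 and the difference grew to 12.6, against 7.28 with it. The exponential of Shannon entropy, which gives small shares more weight, gave the same order of group means, 69.7 ± 6.93 segments in AOM/DSS adenomas and 61.9 ± 2.78 in ApcMin/+ adenomas (SD, n = 3 each). Both measures score the segments that the rule chose, so no test was made.

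The number of segments seen moved with depth. An estimated count of at least 1 was found for 118, 119 and 115 segments in AOM/DSS adenomas and 116 in their section, and for 104, 93 and 106 in ApcMin/+ adenomas and 117 in theirs. With counts rounded to whole numbers, so that 0.5 and above counts as 1, and every library thinned to the lowest sum of 935 counts, the expected number was 103, 99.8 and 104 segments in AOM/DSS adenomas, and 104 in their section. It was 93.5, 94 and 92.3 segments in ApcMin/+ adenomas, and 99.0 in their section. The groups of adenomas did not overlap on the thinned scale, and the difference of their means was 8.83 segments, against 16.3 unthinned. Of the 120 segments 96 had their highest level in AOM/DSS adenoma 2, so the rule itself can favour segments found in the AOM/DSS model. Over all 183 Ighv rows with no count limit, an alternative chosen after the values were seen, the expected number at 932 counts was 104, 101 and 105 in AOM/DSS adenomas and 107 in their section, and 96.3, 94 and 94.4 in ApcMin/+ adenomas and 101 in theirs.

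**Figure D2:**
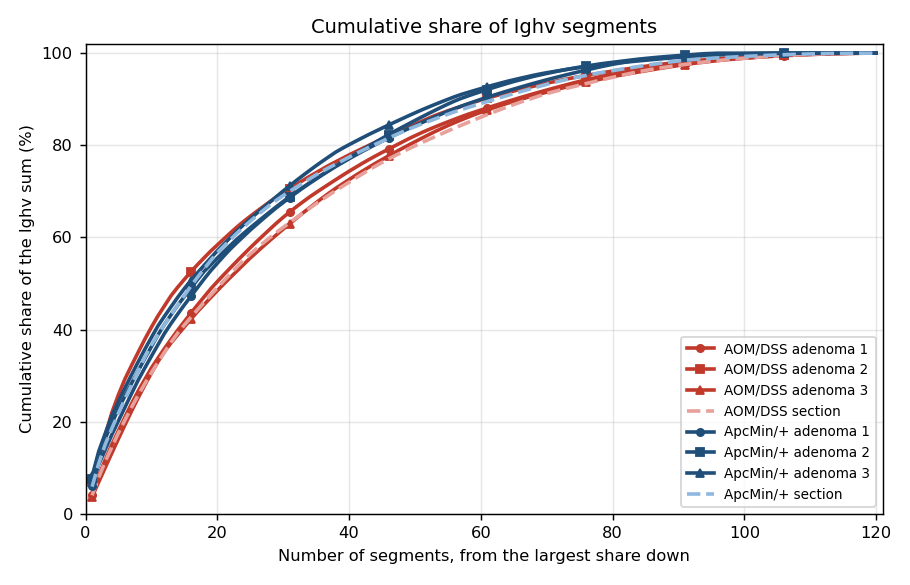
Cumulative share of the Ighv sum (%) against the number of segments, ordered from the largest share down in each library. Red, AOM/DSS; blue, ApcMin/+; solid lines with markers, adenomas; dashed lines, sections. The curves reach 50% at 15 segments in AOM/DSS adenoma 2 and at 20 to 22 in the other AOM/DSS libraries, against 16 to 18 in the ApcMin/+ libraries.

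The 3 largest segments of each library came to 11 distinct segments. Ighv9-3, with the largest mean share over the libraries, took 2.09, 7.00 and 2.62% of the counts in AOM/DSS adenomas and 2.77% in their section, and 2.97, 7.58 and 8.13% in ApcMin/+ adenomas and 3.13% in theirs. It was high in AOM/DSS adenoma 2 and in ApcMin/+ adenomas 2 and 3, and at 2.09 to 3.13% in the other 5 libraries. Ighv3-2 was among the 3 largest in 6 of the 8 libraries, with 4.13, 2.84 and 3.19% in AOM/DSS adenomas and 3.07% in their section, and 4.54, 3.99 and 5.39% in ApcMin/+ adenomas and 5.88% in theirs. Per length it took 1.55 to 3.25%, and its nearest fellow Ighv3-1 took 0.42 to 1.15% of the counts. Whether its reads come from Ighv3-2 itself or from related segments was not tested.

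Ighv1-12 differed widely among libraries of 1 model. It took 6.12% in ApcMin/+ adenoma 1 and 4.22% in the ApcMin/+ section, but 0.097% in ApcMin/+ adenoma 2, where 1 count was found, and 0.641% in ApcMin/+ adenoma 3. In the AOM/DSS model it took 0.393, 0.233 and 0.306% in adenomas 1 to 3 and 0.377% in the section. Ighv14-3 and Ighv6-6 had the same layout within the ApcMin/+ model. Ighv14-3 took 3.27% in ApcMin/+ adenoma 1 and 2.16% in the section, but 0.797 and 0.770% in adenomas 2 and 3, and Ighv6-6 took 2.98% and 5.01% in that adenoma and section, but 0.86 and 0.99% in the others. Ighv1-69 was the reverse, at 1.17% in ApcMin/+ adenoma 1 and 0.679% in the section, and at 3.30 and 3.94% in adenomas 2 and 3.

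Of the 11 segments, Ighv8-8 and Ighv2-6 were larger in every AOM/DSS library than in every ApcMin/+ library, and Ighv1-53 and Ighv1-64 nearly so. Ighv8-8 took 2.50, 5.09 and 2.86% in AOM/DSS adenomas and 3.85% in their section, and 0.63, 0.83 and 0.17% in ApcMin/+ adenomas and 0.82% in theirs. Ighv2-6 took 3.50, 2.21 and 1.90% in AOM/DSS adenomas and 2.61% in their section, and 0.740, 0.276 and 0.551% in ApcMin/+ adenomas and 0.738% in theirs. Ighv1-53 took 4.11, 2.47 and 3.69% in AOM/DSS adenomas and 3.52% in their section, and 1.60, 2.75 and 1.19% in ApcMin/+ adenomas and 1.90% in theirs, so that 1 adenoma of each model crossed. Ighv1-64 took 3.02, 1.64 and 3.17% in AOM/DSS adenomas and 3.10% in their section, and 1.52, 1.44 and 1.63% in ApcMin/+ adenomas and 2.22% in theirs, so that the ApcMin/+ section lay above AOM/DSS adenoma 2. Ighv2-2, at 2.62 to 5.02%, overlapped between the models. Outside the 11 segments the split also ran the other way. Ighv1-67 took 0.467, 0.234 and 0.229% in AOM/DSS adenomas and 0.354% in their section. It took 2.89, 2.03 and 3.10% in ApcMin/+ adenomas and 3.32% in theirs. Ighv1-74 and Ighv5-9 were likewise larger in every ApcMin/+ library than in every AOM/DSS library. How many of all the segments split in each direction was not counted.

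**Figure D3:**
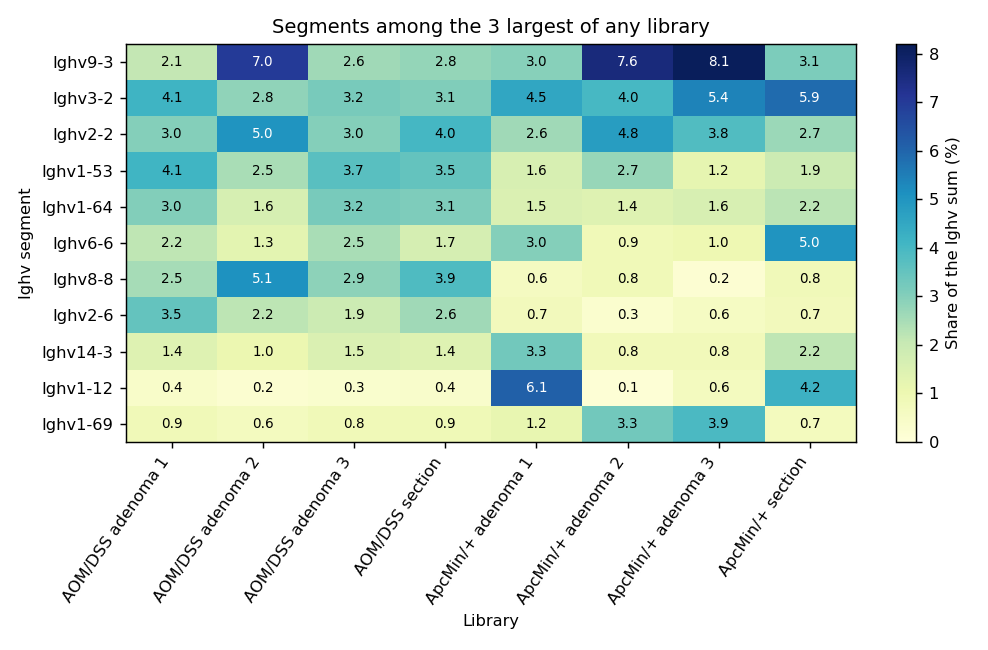
Share of the Ighv sum (%, estimated counts) of the 11 segments that were among the 3 largest of any library, ordered by mean share; columns are libraries, with AOM/DSS at the left. Ighv8-8 and Ighv2-6 are larger in all 4 AOM/DSS libraries, and Ighv1-12 is large in ApcMin/+ adenoma 1 and the ApcMin/+ section, at 6.1 and 4.2%.

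Summed by family, the segments fell into 15 groups of very unequal size. Family Ighv1, with 65 of the 120 segments, held 42.1 to 51.2% of the sum in every library, and family Ighv2 held 7.70 to 11.6%. Of the 15 families 3, Ighv8, Ighv10 and Ighv15, did not overlap between the models. The 6 segments of Ighv8 held 8.36, 11.7 and 9.76% in AOM/DSS adenomas and 9.79% in their section, and 2.32, 2.35 and 2.02% in ApcMin/+ adenomas and 2.74% in theirs. Family Ighv10, with 2 segments, was smaller but laid out alike, at 0.671, 1.54 and 1.54% in AOM/DSS adenomas and 1.74% in their section, and 0.386, 0.321 and 0.288% in ApcMin/+ adenomas and 0.478% in theirs. In ApcMin/+ adenoma 2 a count of 0 allows up to 0.321%, the same as its Ighv10 share. Ighv15, with 1 segment, was at or below 0.217% in every library, so its split lies below that limit and is not resolved. Family Ighv9 followed Ighv9-3, with 3.28, 11.1 and 4.33% in AOM/DSS adenomas and 4.28% in their section, and 6.59, 13.4 and 13.7% in ApcMin/+ adenomas and 6.05% in theirs. Family Ighv5 was at 7.20, 4.42 and 6.83% in AOM/DSS adenomas and 7.13% in their section, and at 7.61, 11.3 and 9.31% in ApcMin/+ adenomas and 6.93% in theirs. Pseudogenes held 10.5 to 14.1% of the sum in every library.

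Position along the locus also differed between the models, a measure that includes the family shares above. In the gene order of GRCm38, the 60 segments nearer the D segments held 53.7, 53.7 and 53.4% of the sum in AOM/DSS adenomas and 53.6% in their section. They held 63.3, 63.1 and 65.2% in ApcMin/+ adenomas and 66.0% in theirs. The share was thus narrow within each model and did not overlap between them, sections included. All 6 segments of family Ighv8 lie among the 60 segments farther from D, and the 4 of family Ighv9 among the nearer 60. The difference of family Ighv8 is thus part of this one, and the position share without that family was not computed. Treatment and Apc genotype differ together between the models, so their parts cannot be told apart. The labels give C57BL/6J for every mouse but no haplotype of the heavy chain locus, and whether both sets of mice carry the same one was not tested.

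**Figure D4:**
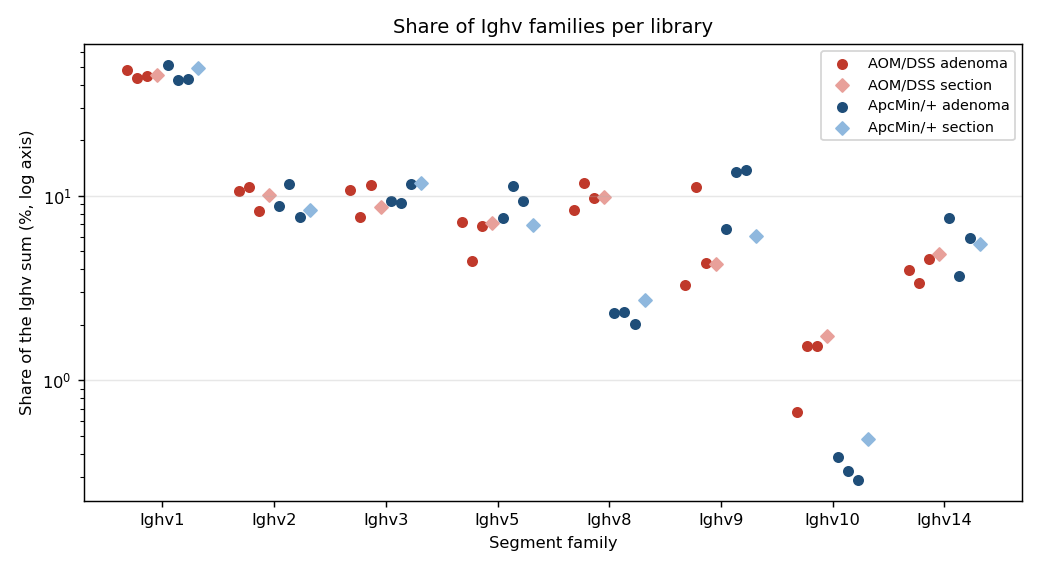
Share of the Ighv sum (%, log axis) held by 8 families in each library. Red, AOM/DSS; blue, ApcMin/+; circles, single adenomas; diamonds, sections. Families Ighv8 and Ighv10 do not overlap between the models, at 8.36 to 11.7% against 2.02 to 2.74% for Ighv8.

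Whole share profiles were compared by their overlap, the sum over segments of the smaller of the 2 shares, which is 100% for identical profiles. Within the AOM/DSS model the 6 pairs of libraries overlapped by 73.1 to 86.3%, and the 16 pairs between models by 57.6 to 66.0%. Within the ApcMin/+ model, adenoma 1 and the section overlapped by 83.7% and adenomas 2 and 3 by 76.9%, while the other 4 pairs overlapped by 64.5, 66.3, 65.8 and 66.5%. ApcMin/+ libraries from different pairs were therefore hardly more alike than libraries of different models. The Morisita overlap, which does not depend on depth, kept these pairs apart from the other 4, at 0.947 and 0.943 against 0.715 to 0.748.

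Light chain variable segments, which the heavy chain rule did not use, also fell into 1 AOM/DSS block and the same 2 ApcMin/+ pairs. The 95 of 161 Igkv and Iglv rows that reached 10 counts were scored in the same way. ApcMin/+ adenoma 1 and the section overlapped by 87.7%, adenomas 2 and 3 by 81.6%, and the other 4 ApcMin/+ pairs by 49.5 to 51.2%. The AOM/DSS pairs overlapped by 74.9 to 90.2% and pairs between models by 56.1 to 67.4%, so that, unlike for the heavy chain, the other 4 ApcMin/+ pairs lay below every pair between models. The leading light chain segment was Igkv5-43 in ApcMin/+ adenoma 1 (19.4%) and in the ApcMin/+ section (16.1%), and Igkv10-96 in ApcMin/+ adenomas 2 (16.8%) and 3 (14.1%). In AOM/DSS adenomas it was Igkv1-110 in adenomas 1 (9.81%) and 3 (9.65%) and Iglv1 in adenoma 2 (10.4%), and it was Igkv1-110 in the section (9.24%). The inverse Simpson number of the light chain was 30.6, 27.3 and 30.5 in AOM/DSS adenomas and 34.2 in their section, and 16.2, 19.7 and 22.5 in ApcMin/+ adenomas and 19.4 in theirs, so here the models did not overlap. Heavy and light chains come from the same cells, and the labels do not say whether ApcMin/+ adenoma 1 and the section, or adenomas 2 and 3, came from 1 mouse.

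**Figure D5:**
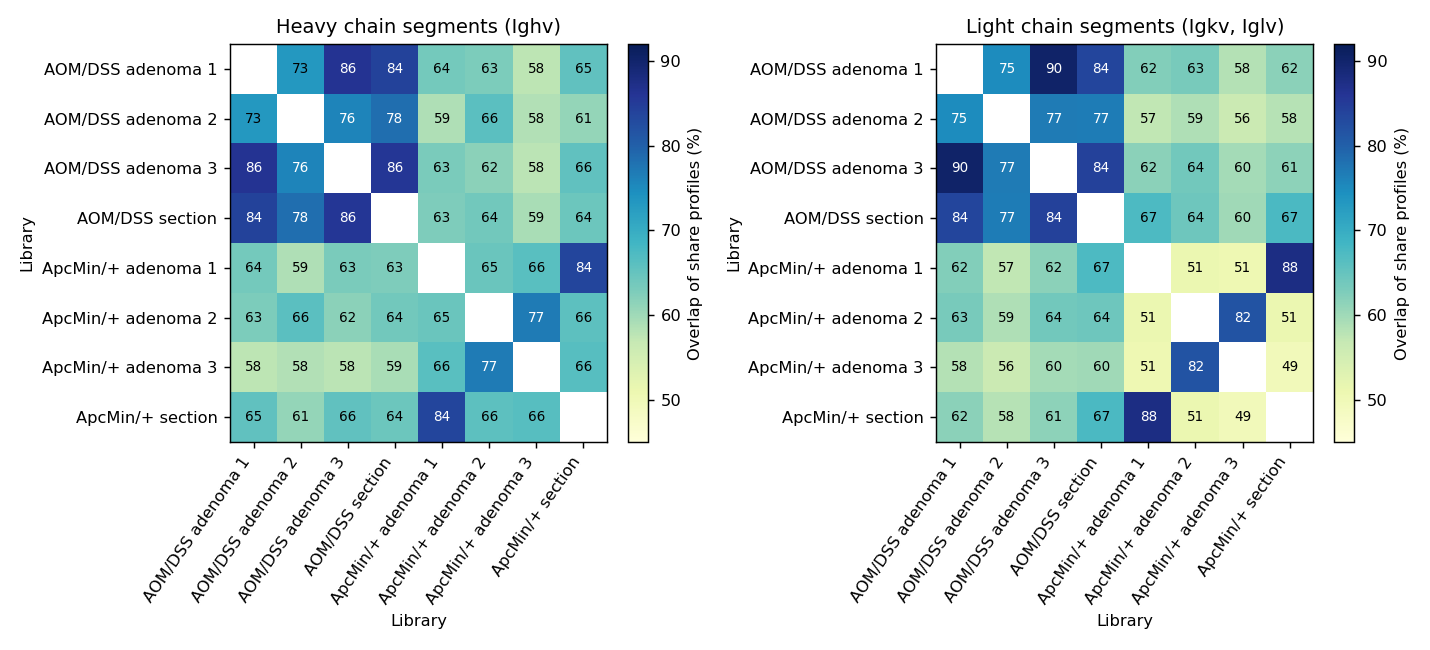
Overlap of share profiles (%) between libraries, for heavy chain segments at the left and light chain segments at the right; each cell is 1 pair of libraries, and the diagonal is left blank. Both chains show 1 block of the 4 AOM/DSS libraries and 2 separate ApcMin/+ pairs, at 83.7 and 76.9% for the heavy chain.

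The first comparison set AOM/DSS adenomas against ApcMin/+ adenomas. With edgeR's quasi-likelihood test on all 17218 genes that passed the low count filter, all 8 libraries in the fit and Benjamini-Hochberg adjustment at 0.05, 35 of the 120 segments were higher and 0 were lower. At an unadjusted p under 0.05, 73 were higher and 0 lower, and DESeq2 called 73 and limma 31. Of all genes tested, edgeR called 10.2% higher and 7.9% lower, and 6221 of 17218 had an unadjusted p under 0.05. DESeq2 called 26.2% of the genes it tested and limma 15.5%. All 120 segments passed the filter, some of them through 1 high library, so nothing is read from their count or from their median log2 fold change of 3.08 (-0.01 over all genes). The 5 called segments with the highest fold changes were Ighv8-13, Ighv1-72, Ighv8-11, Ighv8-8 and Ighv3-4, of which 3 belong to family Ighv8.

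Ighv8-8, the largest of them by share, stood at 12.8, 147 and 8.15 CPM in AOM/DSS adenomas and at 1.04, 0.35 and 0.37 CPM in ApcMin/+ adenomas. The groups did not overlap, and the log2 fold change was 6.55 ± 1.40 (SE; edgeR adjusted p = 0.025). Ighv8-11 was tied with Ighv8-5 as the nearest relative of Ighv8-8 in sequence. Ighv8-11 stood at 10.3, 140 and 8.81 CPM in AOM/DSS adenomas and at 1.03, 0.12 and 0.31 CPM in ApcMin/+ adenomas, with a log2 fold change of 6.72 ± 1.49 (SE; edgeR adjusted p = 0.028). The ApcMin/+ section held 10.1 CPM of Ighv8-8 and 9.48 CPM of Ighv8-11, close to the 11.5 and 8.51 CPM of the AOM/DSS section.

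Ighv1-72, known in C57BL/6 mice as the segment that leads the response to the hapten NP, stood at 8.94, 99.6 and 4.81 CPM in AOM/DSS adenomas and at 0.34, 0 and 0.51 CPM in ApcMin/+ adenomas. Its log2 fold change was 7.08 ± 1.59 (SE; edgeR adjusted p = 0.029). It was also low in the ApcMin/+ section, at 1.27 CPM and 0.10% of the sum, against 7.14 CPM in the AOM/DSS section. Ighv3-4 stood at 9.51, 42.0 and 8.97 CPM in AOM/DSS adenomas and at 0.14, 0.27 and 0.32 CPM in ApcMin/+ adenomas, and its log2 fold change was 6.35 ± 0.85 (SE; edgeR adjusted p = 0.0079). Ighv8-13 totalled 54 counts over the AOM/DSS adenomas and 0 after rounding over the ApcMin/+ adenomas, so it was at least 6.64-fold higher when the ApcMin/+ libraries are set to 3 counts each.

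Many of these calls were lost when 1 adenoma was left out. The number called was 17, 17 and 35 without AOM/DSS adenomas 1, 2 and 3. It was 5, 1 and 11 without ApcMin/+ adenomas 1, 2 and 3. Calls over all genes fell too, from 18.1% to 10.7, 11.8 and 11.9%, and to 7.77, 4.54 and 12.6%, in the same order. Ighv3-4 stayed past the threshold in each of these 6 fits, whereas Ighv8-8, Ighv8-11 and Ighv1-72 were lost whenever an ApcMin/+ adenoma was left out, and Ighv8-13 was lost in all 5 fits that kept it. The log2 fold changes of Ighv8-8, Ighv8-11 and Ighv1-72 ran from 4.14 to 7.85 over the 6 fits. Without AOM/DSS adenoma 2 the median log2 fold change of the segments was 1.50, and fits that left out another adenoma gave 2.75 to 3.55. Ighv9-3 did not pass, at 10.7, 202 and 7.46 CPM in AOM/DSS adenomas and 4.89, 3.14 and 18.1 CPM in ApcMin/+ adenomas (edgeR adjusted p = 0.16), nor did Ighv1-12, at 2.01, 6.71 and 0.87 CPM against 10.1, 0.04 and 1.43 CPM (edgeR adjusted p = 0.90).

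The second comparison set ApcMin/+ adenomas against the ApcMin/+ section. Of the 120 segments 10 were lower and 0 were higher by the same test. At an unadjusted p under 0.05, 59 were lower and 0 higher, and DESeq2 called 40 and limma 4. By edgeR 6.35% of all genes tested were called lower and 10.1% higher, and 6553 of 17218 had an unadjusted p under 0.05. DESeq2 called 26.6% of the genes it tested and limma 18.1%. The median log2 fold change was -3.13 over the segments and 0.03 over all genes. The 5 called segments that fell most were Ighv1-23, Ighv7-1, Ighv6-6, Ighv1-61 and Ighv1-83. Ighv6-6, the second largest segment of the section, stood at 4.91, 0.36 and 2.19 CPM in ApcMin/+ adenomas against 61.8 CPM in the section, a log2 fold change of -4.64 ± 1.15 (SE; edgeR adjusted p = 0.042). Ighv1-23 stood at 0.15, 0.06 and 0.30 CPM in the adenomas against 4.81 CPM in the section, with a log2 fold change of -4.94 ± 1.22 (SE; edgeR adjusted p = 0.041). Ighv1-61 stood at 0.14, 0.42 and 0.65 CPM in the adenomas against 9.04 CPM, and Ighv1-83 at 0.66, 0.09 and 0.24 CPM against 6.73 CPM, with log2 fold changes of -4.51 and -4.31 (edgeR adjusted p = 0.048 for each). Ighv7-1, the segment of the classical antibodies to phosphorylcholine, had 2 counts over the ApcMin/+ adenomas and 17 in the section, a ratio of 0.031 with an exact 95% counting interval of 0.00346 to 0.13.

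With a single section this comparison rested on 1 library, and the shared estimate of spread mattered. The number called was 1, 0 and 10 without ApcMin/+ adenomas 1, 2 and 3. It was 0, 32 and 7 without AOM/DSS adenomas 1, 2 and 3. In the same order, 2.32, 2.06 and 25.8%, and 9.22, 15.8 and 9.04%, of all genes were called, against 16.4% in the full fit. The 5 segments named above were lost in 3 to 5 of these 6 fits, with every log2 fold change still between -5.65 and -3.87. Ighv3-2, at 7.47, 1.66 and 11.98 CPM in ApcMin/+ adenomas against 72.6 CPM in the section, and Ighv9-3, at 4.89, 3.14 and 18.1 CPM against 38.7 CPM, did not pass (edgeR adjusted p = 0.085 and 0.39).

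The third comparison set AOM/DSS adenomas against the AOM/DSS section. None of the 120 segments passed edgeR's test, 2 had an unadjusted p under 0.05, DESeq2 called 2 and limma called 1. Of all genes tested edgeR called 5.01%, 2.38% higher and 2.63% lower, and 5142 of 17218 had an unadjusted p under 0.05. DESeq2 called 17.9% of the genes it tested and limma 3.96%. The median log2 fold change was 1.70 over the segments and 0.14 over all genes, and fell to 0.34 without AOM/DSS adenoma 2. Ighv8-8, at 12.8, 147 and 8.15 CPM in the adenomas, lay on both sides of the 11.5 CPM of the section (log2 fold change 2.27 ± 1.71, SE; edgeR adjusted p = 0.40). Ighv1-61 was at 3.40, 18.5 and 1.92 CPM in the adenomas against 0.02 CPM in the section, and had the largest fold change and the lowest edgeR adjusted p of the segments, 0.079. Its share was 0.64 to 0.67% in the adenomas and 0.01% in the section, where a count of 0 allows up to 0.05%. Ighv1-52, its nearest relative at 97.7% identity, went the other way, at 0.75, 0.64 and 0.75% in the adenomas and 1.15% in the section. How reads were split between these segments was not tested. The median log2 fold changes of the segments against the sections had opposite signs in the models. Each rests on a single section and on segments chosen by level, so nothing is read from the signs. The difference of the 2 adenoma effects was tested after these medians were seen, and none of the 17218 genes passed by edgeR. At an unadjusted p under 0.05 were 1369 of all genes and 56 of the segments, and the lowest edgeR adjusted p of a segment was 0.41.

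Constant regions give the antibody class. IgA (Igha) made up 82.8, 71.5 and 90.1% of heavy chain constant counts in AOM/DSS adenomas and 92.9% in their section, and 97.8, 96.5 and 98.2% in ApcMin/+ adenomas and 97.8% in theirs. IgG classes made up 15.4, 25.0 and 7.38% in AOM/DSS adenomas and 4.45% in their section, and 1.07, 1.27 and 0.757% in ApcMin/+ adenomas and 0.856% in theirs. Of the 8 constant genes, 5 were higher in AOM/DSS than in ApcMin/+ adenomas: Ighm, Ighd, Ighg1, Ighg2b and Ighg2c, with median log2 fold change 5.93 over the 8, and 3.84 without AOM/DSS adenoma 2. Ighg1 stood at 234, 2008 and 64.2 CPM in AOM/DSS adenomas and at 4.25, 1.51 and 2.47 CPM in ApcMin/+ adenomas (log2 fold change 8.13 ± 1.52, SE; edgeR adjusted p = 0.018), and without AOM/DSS adenoma 2 its log2 fold change was 5.76 (edgeR adjusted p = 0.013). Igha, at 2554, 10437 and 1498 CPM against 1029, 206 and 1057 CPM, did not pass (edgeR adjusted p = 0.083). Ighe was at 0 in every ApcMin/+ adenoma. None of the 8 passed in ApcMin/+ adenomas against their section or in AOM/DSS adenomas against theirs, where 3 and 0 had an unadjusted p under 0.05, DESeq2 called 1 and 0, and limma called 0 in each. Without ApcMin/+ adenomas 1, 2 and 3, the number of constant genes called between the models was 1, 0 and 3, and 4 were called in ApcMin/+ adenomas against their section without AOM/DSS adenoma 2.

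V segment counts kept pace with constant counts. There were 16.6, 19.7 and 17.1 Ighv counts per 100 heavy chain constant counts in AOM/DSS adenomas and 9.93 in their section, and 15.7, 19.4 and 20.7 in ApcMin/+ adenomas and 16.7 in theirs. The AOM/DSS section was the low one, and the other 7 libraries lay between 15.7 and 20.7. Of the light chain constant genes 4 of 5 were tested, and 3 (Iglc1, Iglc2 and Iglc3) were higher in AOM/DSS than in ApcMin/+ adenomas, while 1, Iglc2, was lower in ApcMin/+ adenomas than in their section. The calls between the models were lost without any 1 of the ApcMin/+ adenomas. Against the ApcMin/+ section limma called 0 of the 4, and edgeR called 4 without AOM/DSS adenoma 2 and 0 in each of the other 5 fits without 1 adenoma. Iglc4 was at 0 in 6 libraries.

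Marker genes of B cells and plasma cells were tested in the same fit, and their part in the differences of single segments was not tested. Between the models edgeR called 10.2% of all genes higher, and 7.77, 4.54 and 12.6% in either direction without ApcMin/+ adenomas 1, 2 and 3. Against the ApcMin/+ section it called 15.8% of all genes without AOM/DSS adenoma 2. Counts of constant, B cell, plasma cell and T cell genes called are to be read beside these shares. Of 14 B cell genes 11 were higher in AOM/DSS than in ApcMin/+ adenomas. None of the 14 passed in either adenoma against section comparison by edgeR, with 11 and 0 at an unadjusted p under 0.05, 8 and 0 called by DESeq2 and 0 by limma. Between the models 0 B cell genes were called without any 1 of the ApcMin/+ adenomas, and 12 were called in ApcMin/+ adenomas against their section without AOM/DSS adenoma 2. Of 12 plasma cell genes none was higher and 2 were lower in AOM/DSS adenomas, namely Sdc1 and Prdm1, and the same 2 were higher in ApcMin/+ adenomas than in their section; both are also expressed by colon epithelium. Between the models 6 of the 12 were higher and 2 lower at an unadjusted p under 0.05, DESeq2 called 7 and limma 1, and 0 were called by edgeR without ApcMin/+ adenoma 1 or 2. In ApcMin/+ adenomas against their section 9 were called without AOM/DSS adenoma 2. The joining chain gene of IgA and IgM, listed as Igj, was at 559, 2411 and 336 CPM in AOM/DSS adenomas and 634 CPM in their section, and at 303, 66.3 and 317 CPM in ApcMin/+ adenomas and 2335 CPM in theirs. It passed in none of the 3 comparisons, and the plasma cell genes summed to 1044 to 3346 CPM in AOM/DSS adenomas and to 1010 to 1128 CPM in ApcMin/+ adenomas, with Sdc1 the largest term in the ApcMin/+ adenomas. In AOM/DSS adenomas against their section 1 of the 12, Prdm1, was higher, a call that held in only 1 of the 6 fits without 1 adenoma, that without ApcMin/+ adenoma 3.

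Of 7 germinal centre genes none was called in the 3 comparisons by edgeR, with 2, 2 and 1 at an unadjusted p under 0.05, 3, 1 and 1 called by DESeq2 and 0, 2 and 0 by limma. Without AOM/DSS adenoma 2, 4 were called in ApcMin/+ adenomas against their section. The recombinase genes Rag1 and Rag2 were at or below 0.10 CPM in every library, and Dntt, the only recombination gene tested, was not called in any comparison by edgeR, DESeq2 or limma, with an unadjusted p under 0.05 in AOM/DSS adenomas against their section. Of 6 T cell genes 5 were higher in AOM/DSS than in ApcMin/+ adenomas, with none called by edgeR against either section, where 1 and 1 had an unadjusted p under 0.05 and DESeq2 called 1 and 1. The T cell calls between the models numbered 1, 0 and 3 without ApcMin/+ adenomas 1, 2 and 3. No macrophage or epithelial marker was called by edgeR in any of the 3 comparisons, where 1, 1 and 2 macrophage genes and 1, 4 and 1 epithelial genes had an unadjusted p under 0.05, DESeq2 called 1, 0 and 1 and 1, 3 and 1, and limma called 1, an epithelial gene between the models. Without 1 adenoma edgeR called 0 to 1 macrophage genes and 0 to 1 epithelial genes between the models, and 0 to 1 and 0 to 3 in ApcMin/+ adenomas against their section, highest without ApcMin/+ adenoma 3. Of 4 smooth muscle markers 1 was lower in AOM/DSS than in ApcMin/+ adenomas, 2 in ApcMin/+ adenomas and 4 in AOM/DSS adenomas against their sections, and fits without 1 adenoma called 0 to 1, 0 to 4 and 0 to 4.

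The segments whose levels were most like those of Ighv9-3 over the 8 libraries, by Pearson's r of log2(CPM + 1), were Ighv1-37 (0.98), Ighv9-2 (0.98) and Ighv14-1 (0.97). The 8 points share library size and total antibody RNA, which all segments follow, and Ighv9-2 is also the nearest relative of Ighv9-3 in sequence. By level, 96 of the 120 segments were highest in AOM/DSS adenoma 2 and 21 in the ApcMin/+ section. By share, the library with the highest value was spread over all 8, from 10 segments in the ApcMin/+ section to 23 in ApcMin/+ adenoma 3.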

How the data were processed

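Bulk RNA libraries (TruSeq RNA, single reads) of 8 mouse colon samples were used. The authors deposited estimated counts and FPKM values per gene, with gene symbols and types, per the file headers; reads were placed on mouse build mm9, per the submitters' processing notes, and the sources used here name no aligner, counter or strand setting. The lowest deposited estimated count and FPKM was 1 in every library, so 1 was taken off each value. The table of the authors' own comparisons was not used, and 27 rows with a date in place of a symbol stayed in the fits.

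Counts were rounded and tested with edgeR 4.0.16 (quasi-likelihood, TMM factors, filterByExpr, R 4.3.3) in 1 fit of the 4 groups, without a replicate block. Alternatives used DESeq2 1.42.0, limma 3.58.1 on log2(FPKM + 0.1), other scalings and filters, and fits without single adenomas. Shares used unrounded counts. The edgeR step was tested on simulated data with changes added to well expressed genes only, so segments at low levels were not covered. Total estimated counts of 18156974 to 22720164 per library set the precision of single segments; 3 counts is taken as what a count of 0 allows.

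Members and gene lists were chosen with earlier results of these data known. Named were the 3 largest segments of each library, up to 5 called segments per direction and comparison, those next to the count limit, and genes of the lists; segments quoted for sequence likeness or for Ighv1-61 in the third comparison were chosen after their values were seen. Sequences came from GENCODE M21 transcripts by gene name; no coordinates are given, since the files use another build. The values of 2 single marker genes are not reported here.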

Additional observations from a re-analysis of the deposited data

How the results depend on the processing

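Counts of called segments moved with the method. For AOM/DSS against ApcMin/+ adenomas DESeq2 called 73 segments, and fits without 1 adenoma called 1 to 35, against 35. Of all genes, DESeq2 called 26.2% and fits without 1 adenoma 4.54 to 12.6%, against 18.1%. For ApcMin/+ adenomas against their section DESeq2 called 40, counts as deposited 16, limma 4, and fits without 1 adenoma 0 to 32, against 10. The shares of all genes were 26.6, 17.9, 18.1 and 2.06 to 25.8%, against 16.4%. For AOM/DSS adenomas against their section DESeq2 called 2 and limma 1, against 0, with 17.9 and 3.96% of all genes, against 5.01%. Replicate numbers did not pair the adenomas (correlations of deviations -0.11, -0.32 and -0.28), and the fit with the replicate block called 1 segment and 3.46% of all genes. Other scalings, filters and fits kept the counts within 1.5 times. The AOM/DSS minus ApcMin/+ difference kept its sign for the inverse Simpson number (3.83 to 12.6 without 1 adenoma) and for the largest share (-3.36 to -1.71 percentage points), and for the number of segments it was 16.3 unthinned against 8.83 thinned. Among named segments, the log2 fold change of Ighv1-12 between adenomas, -0.28, was 1.55 with limma, 0.12 with the block and -1.42 to 2.11 without 1 adenoma, and that of Ighv1-69, 1.06, was -0.25 to 2.33. Against the AOM/DSS section the fold change was -0.013 to 2.73 for Ighv2-2 and -0.14 to 2.78 for Ighv8-8 without 1 adenoma, lowest without AOM/DSS adenoma 2. The causes of these changes were not tested. Single sections, 935 Ighv counts in ApcMin/+ adenoma 2 and near-identical segments limit what single shares can show.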
